A study of Mus musculus with 30 samples.

Results

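The untreated PDS5AB line was compared with the untreated TIR1 line, both engineered from male mouse E14 embryonic stem cells of 129P2/Ola background. The comparison rests on 6 of the series' 30 RNA-seq libraries, 3 from each line, chosen by their labels: cells of the line EN293.1 or EN148.10, given no auxin. EN293.1 (called PDS5AB here) has the genotype PDS5A-AID, PDS5B-AID, Tir1, and EN148.10 (called TIR1) has the genotype Tir1. Both therefore carry Tir1, the plant F-box protein that destroys AID-tagged proteins when auxin is present, and they differ in the AID (auxin-inducible degron) fusions of PDS5A and PDS5B. Both grew in serum with leukemia inhibitory factor (LIF), the MEK inhibitor PD0325901 and the GSK3 inhibitor CHIR-99021. The other untreated lines used for reference were WAPL (an AID fusion of WAPL with Tir1) and the combined lines PDS5AB-NIPBL and WAPL-NIPBL, which add an FKBP degron on NIPBL and a HaloTag on RAD21. Levels or calls are also given from treated groups: PDS5AB and TIR1 after 24 h of auxin at 500 µM, and PDS5AB-NIPBL after 24 h of auxin at 500 µM with dTAG-13 at 500 nM. The plot of summed levels by line also holds WAPL treated like PDS5AB and WAPL-NIPBL treated like PDS5AB-NIPBL. Each genotype is represented by 1 named line, so that tagging, clone history and any loss of PDS5 protein without auxin cannot be told apart in this comparison. Nothing in the labels says whether the 3 libraries of a line came from separate cultures, so p-values measure the spread between libraries, which may be technical.

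Cohesin is a ring complex that extrudes loops of chromatin and holds sister chromatids together. PDS5A and PDS5B bind the ring and act in its release with WAPL, in its protection with sororin and in its acetylation by the ESCO enzymes. Embryonic stem cells are a common place to study these proteins because a tagged protein can be removed within hours, and the untreated tagged line is the baseline against which such removal is read.

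The 6 libraries held 23832495 to 35410075 counted fragments. Levels are given in CPM, the counts of a gene scaled to the size of its library. Across genes, log2 CPM correlated with a Pearson's r of 0.989 to 0.992 within a line and of 0.967 to 0.972 between the lines, and the libraries of each line therefore resembled each other more than those of the other line. Of 19868 genes tested with edgeR's quasi-likelihood test, 6362 (32%) were called at an adjusted p under 0.05, 3087 higher (15.5%) and 3275 lower (16.5%) in PDS5AB. The 3 libraries of one line did not overlap the 3 of the other for 40.8% of the genes tested, whether called or not. These shares are the background for every count below. Of the called genes, 42.3% differed by less than 1.5-fold and 2386 by more than 2-fold, and the median size was 0.71 on the log2 scale. Of the called genes 579 were more than 4-fold higher in PDS5AB and 263 more than 4-fold lower, with a median level of 0.712 CPM in PDS5AB for the higher genes and of 1.55 CPM in TIR1 for the lower ones, beside 7.55 CPM over all genes tested. A test against a 2-fold minimum called 542 higher and 378 lower. The summed level of 10 stem cell markers was 6630 to 7470 CPM in PDS5AB and 6260 to 6550 CPM in TIR1. The 8 fibroblast feeder markers summed to 27.4 to 30.1 CPM in PDS5AB and 21.8 to 29.5 CPM in TIR1, with Thy1 the most abundant in PDS5AB, while Dcn, Lum and Postn had at most 3 counts in every library.

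The tagged genes came first. Pds5a (chr5:65605721-65698273) stood at 73.7, 87.3 and 89.1 CPM in the 3 PDS5AB libraries and at 210, 222 and 239 CPM in the 3 TIR1 libraries. The same gene stood at 90.4 to 111 CPM in PDS5AB-NIPBL and at 253 to 286 CPM in WAPL-NIPBL, and WAPL had 216 to 259 CPM. Reads counted on Pds5a were thus low in both lines that carry its AID fusion and in none of the lines without it. The gene models used for counting are those of the reference genome and do not hold the AID sequence. The log2 fold change was -1.42 (SE 0.101, edgeR adjusted p = 2.4e-12) for PDS5AB over TIR1 and -1.43 (SE 0.101, edgeR adjusted p = 4.9e-12) for PDS5AB-NIPBL over WAPL-NIPBL, which share no library. Pds5b (chr5:150673739-150810690) was at 109, 112 and 119 CPM in PDS5AB and at 99.7, 112 and 119 CPM in TIR1, with overlapping groups. Its log2 difference was 0.04 (SE 0.0769, edgeR adjusted p = 0.735). Reads over Pds5a were counted without strand and Pds5a shares exonic positions with Gm42727 and Gm42729, so reads of those transcripts could not be told apart from it.

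The genes around the tagged loci were examined because editing can touch neighbours. Within 1 Mb (1000000 bases) of Pds5a, 11 of 30 tested genes were called (36.7%), 6 higher and 5 lower, with a median log2 fold change of -0.01. Within the same distance of Pds5b, 4 of 13 were called (30.8%), 1 higher and 3 lower, with a median of -0.18. Both shares lay near the 32% of all genes tested. Single genes differed by more than these medians. Near Pds5a the largest called log2 fold changes in each direction were -2.66 (Klb) and 1.25 (Chrna9). Near Pds5b they were -4.63 (Gm5, with at most 1 count in each PDS5AB library) and 2.37 (Stard13). For PDS5AB-NIPBL over WAPL-NIPBL these genes were at -1.58, 1.12, -2.24 and 1.7. Gm3716, near Pds5a, had opposite signs in the pairs (0.92 and -0.8).

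Among 17 tested genes for the other cohesin subunits and regulators, 3 were higher, 4 lower and 10 not called, with a median of -0.04. The ring subunit genes Smc1a and Smc3 did not pass the test, with log2 values of 0.08 and -0.03. Neither did the loader gene Nipbl (0.17), the release factor gene Wapl (-0.04) or the boundary factor gene Ctcf (0.04). Stag2, a somatic subunit that docks on the ring, was higher at 105, 117 and 123 CPM against 85.1, 91.6 and 96.8 CPM (log2 0.33, SE 0.0846, edgeR adjusted p = 0.00254), with separate groups. The widest difference was in the meiotic subunit gene Smc1b, at 7.05, 7.8 and 10.4 CPM in PDS5AB and 28.1, 26.3 and 33.4 CPM in TIR1. The lowest TIR1 library lay above the highest PDS5AB library, and the log2 fold change was -1.79 (SE 0.199, edgeR adjusted p = 2.08e-08). Smc1b was also lower in PDS5AB-NIPBL than in WAPL-NIPBL (log2 -1.64, SE 0.206, edgeR adjusted p = 3.44e-07). Of the other meiotic subunits, Stag3 was lower (-0.40) and Rec8, the meiotic kleisin, higher (0.40), so the meiotic members did not move one way. The call on Stag3 was lost when any of PDS5AB libraries 1 and 2 or TIR1 library 1 was left out.

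**Figure D1:**
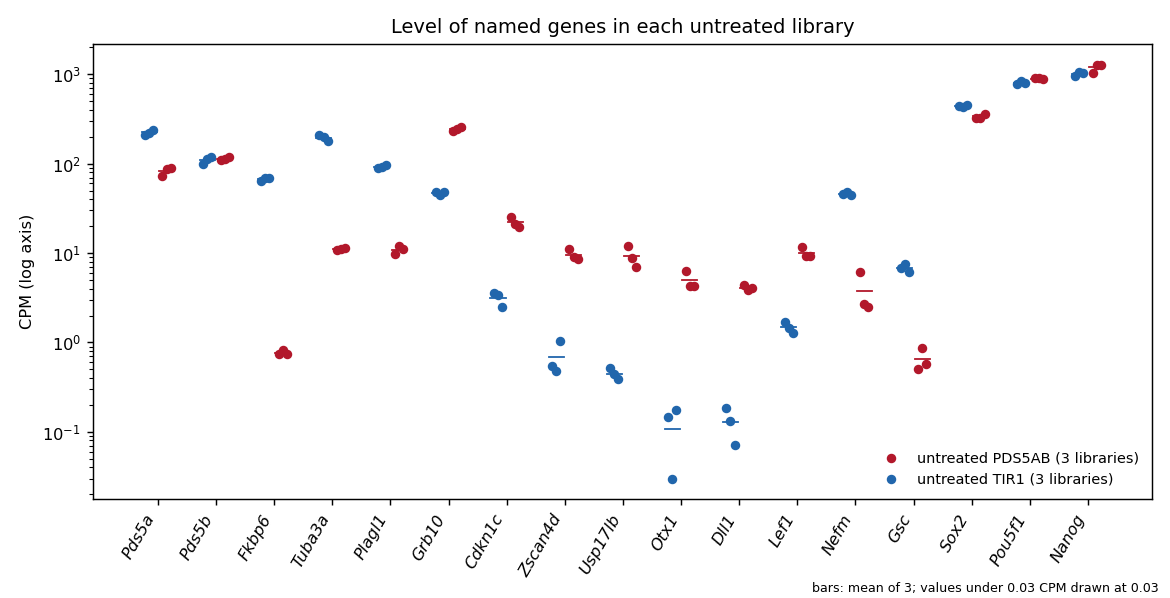
Level of named genes in each of the 3 untreated PDS5AB libraries (red) and 3 untreated TIR1 libraries (blue), in CPM on a log axis, with bars at the means and values under 0.03 drawn at 0.03. Fkbp6 lies below 1 CPM in every PDS5AB library and above 63 CPM in every TIR1 library, while Pds5b overlaps between the lines.

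Genes that are silenced by promoter methylation outside the germ line included Fkbp6, which had the largest decrease of the genes named here. In somatic and pluripotent cells such genes are held down by DNA methylation and, at many of them, by the E2F6 and MGA repressor complexes, whose sites resemble the motifs GCGGGA and CACGTG. Of 21 tested members of this list, 9 were lower, 3 higher and 9 not called in PDS5AB. The summed level of the list was 205 to 226 CPM in PDS5AB and 651 to 691 CPM in TIR1, yet its median log2 fold change was 0.02, since a few strongly lower genes carried the sum. The promoters of 4 members are shown because the first 3 are the members that fell furthest and Mael is one that rose and carries both motifs. Each is the 250 bases upstream of the gene's start from RefSeq (GRCm38.p6), read on the gene's strand, with the matches to CACGTG in capitals. Matches to GCGGGA on either strand, where the gene's strand can read TCCCGC, are in capitals too.

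Fkbp6, chr5:135350045-135350294, minus strand: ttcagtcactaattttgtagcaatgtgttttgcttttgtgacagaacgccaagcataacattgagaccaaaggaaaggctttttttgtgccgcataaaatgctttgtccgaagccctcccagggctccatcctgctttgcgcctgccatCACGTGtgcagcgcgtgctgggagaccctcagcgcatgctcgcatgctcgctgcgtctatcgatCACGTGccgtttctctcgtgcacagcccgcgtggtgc
Tuba3a, chr6:125286082-125286331, minus strand: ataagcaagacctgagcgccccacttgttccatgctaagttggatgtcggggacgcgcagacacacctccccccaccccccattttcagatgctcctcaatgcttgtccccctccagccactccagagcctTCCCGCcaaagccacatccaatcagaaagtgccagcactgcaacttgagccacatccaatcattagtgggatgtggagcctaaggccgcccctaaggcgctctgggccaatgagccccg
Stk31, chr6:49395354-49395603, plus strand: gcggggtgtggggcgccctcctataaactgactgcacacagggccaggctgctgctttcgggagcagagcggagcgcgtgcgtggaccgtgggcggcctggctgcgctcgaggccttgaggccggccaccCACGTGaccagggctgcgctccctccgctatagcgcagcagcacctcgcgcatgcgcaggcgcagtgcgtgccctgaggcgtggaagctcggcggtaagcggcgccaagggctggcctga
Mael, chr1:166238745-166238994, minus strand: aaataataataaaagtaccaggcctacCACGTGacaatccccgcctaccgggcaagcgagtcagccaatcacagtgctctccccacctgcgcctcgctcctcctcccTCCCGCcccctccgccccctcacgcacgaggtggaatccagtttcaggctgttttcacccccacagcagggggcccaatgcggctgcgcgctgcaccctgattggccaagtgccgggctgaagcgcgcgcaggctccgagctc

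The Fkbp6 promoter holds 2 copies of CACGTG, those of Stk31 and Mael hold 1 each, and Tuba3a holds none but has 1 copy of TCCCGC. Across the list, RefSeq promoters were matched for 21 of 23 genes, of which 13 contained CACGTG and 6 contained GCGGGA on either strand. Among 32851 promoter windows of the same length, 6.02% contained CACGTG and 16.9% contained GCGGGA. Matches were found in genes of every kind of outcome: CACGTG lay in the promoters of 4 of the 9 lower genes, 3 of the 3 higher genes and 6 of the 7 uncalled genes with a matched promoter. CACGTG and GCGGGA can share 1 letter where they meet, and a match describes the letters only. The median number of CG dinucleotides was 14 in the 9 lower genes, 16 in the 7 uncalled and 18 in the 3 higher genes, against 6 over all windows.

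Fkbp6, a co-chaperone of the piRNA pathway in male germ cells, was at 0.742, 0.826 and 0.745 CPM in PDS5AB and at 63.3, 69.6 and 69.3 CPM in TIR1. It was lower in PDS5AB-NIPBL too, at 14.2 to 17.7 CPM, than in WAPL-NIPBL, at 50.9 to 55.2 CPM, and WAPL had 43.3 to 49.3 CPM. The order of the lines was thus PDS5AB below PDS5AB-NIPBL, and PDS5AB-NIPBL below WAPL, WAPL-NIPBL and TIR1. Its log2 fold change was -6.44 (SE 0.145, edgeR adjusted p = 2.19e-24). Tuba3a, a testis alpha-tubulin, was at 10.8, 11 and 11.4 CPM against 210, 198 and 179 CPM. PDS5AB-NIPBL again lay between, at 30.3 to 43.4 CPM, with WAPL-NIPBL at 203 to 255 CPM. The log2 fold changes were -4.15 (SE 0.128, edgeR adjusted p = 5.34e-21) and -2.62 (SE 0.117, edgeR adjusted p = 1.03e-16) in the pairs PDS5AB over TIR1 and PDS5AB-NIPBL over WAPL-NIPBL. Tuba3a shares exonic positions with 4930417O13Rik.

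Other members of the list fell less. Dazl, an RNA-binding regulator of germ cell entry, was at 5.09, 6.38 and 5.27 CPM in PDS5AB and at 25, 25.7 and 23.4 CPM in TIR1 (log2 -2.15, SE 0.19, edgeR adjusted p = 2.41e-10). Stk31, a germ cell kinase-like protein, was at 4.62, 4.36 and 5.41 CPM against 23.5, 27.7 and 38.1 CPM (log2 -2.63, SE 0.166, edgeR adjusted p = 1.77e-13). In both genes every PDS5AB library lay below every TIR1 library. Hormad1, a meiotic chromosome axis gene, changed by -1.87 and the ribosomal protein retrogene Rpl10l by -1.26 on the log2 scale.

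The 3 higher members were Ddx4, Mael and Tdrd1. Mael was at 6.95, 8.07 and 7.29 CPM in PDS5AB and at 3.53, 3.7 and 3.51 CPM in TIR1 (log2 1.05, SE 0.153, edgeR adjusted p = 2.23e-06). Tdrd1 was at 1.42, 1.55 and 1.41 CPM against 0.257, 0.264 and 0.248 CPM (log2 2.49, SE 0.296, edgeR adjusted p = 6.9e-08). Neither differed between the combined lines beyond error, with edgeR adjusted p of 0.789 and 0.816 for PDS5AB-NIPBL over WAPL-NIPBL.

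The genes for DNA methylation enzymes differed as well. Dnmt3l, a catalytically inactive partner of the de novo methyltransferases, was at 359, 288 and 276 CPM in PDS5AB and at 137, 128 and 120 CPM in TIR1. The log2 fold change was 1.26 (SE 0.124, edgeR adjusted p = 1.89e-09), and it was 1.29 (SE 0.126, edgeR adjusted p = 3.14e-09) in PDS5AB-NIPBL over WAPL-NIPBL. The de novo methyltransferase gene Dnmt3a was higher (log2 0.67) and its relative Dnmt3b lower (-0.58), each with separate groups. The maintenance methyltransferase gene Dnmt1 (-0.24) and its partner Uhrf1 (-0.35) were lower, and 4 of the 9 listed genes were not called. DNA methylation itself was not measured in these libraries.

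Genes of the 2-cell-like state rose together. This state is a rare and passing condition of embryonic stem cell cultures that resembles the embryo at the time of genome activation, marked by the Zscan4 cluster and by genes of the Usp17l and Tcstv families. All 11 tested members of the list were higher in PDS5AB, with a median log2 fold change of 3.41, beside 15.5% of all genes called higher and a median of 0.00. The filter on low counts can pass a gene through the line where it is high, so the count of 11 is not comparable with that share. Over all 12 members, tested or not, the summed level was 35.2 to 50.8 CPM in PDS5AB and 3.04 to 4.11 CPM in TIR1. In bulk RNA, more cells in this state and more RNA per such cell cannot be told apart.

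Zscan4d was at 11.2, 8.96 and 8.55 CPM in PDS5AB and at 0.551, 0.484 and 1.03 CPM in TIR1 (log2 3.76, SE 0.266, edgeR adjusted p = 2.06e-12). Usp17lb, a deubiquitinase of the same period, was at 11.9, 8.86 and 6.98 CPM against 0.514, 0.44 and 0.39 CPM (log2 4.35, SE 0.275, edgeR adjusted p = 1.75e-13). PDS5AB library 1 was the highest in both, and no PDS5AB library overlapped TIR1. Copies within these families are nearly identical in sequence, so how reads were shared among them is uncertain. Between the combined lines Zscan4d had the opposite order, at 0 to 0.0435 CPM in PDS5AB-NIPBL and at 0.0474 to 0.176 CPM in WAPL-NIPBL, but this difference did not pass the test (edgeR adjusted p = 0.114). The summed level of the list was 0.359, 0.392 and 0.557 CPM in PDS5AB-NIPBL and 0.616, 0.916 and 0.663 CPM in WAPL-NIPBL, lower in the line with PDS5 fusions. All 11 tested members were called higher in PDS5AB than in each of the other 4 untreated lines, beside 6.05% of all genes tested. The limit set by the filter on low counts holds for this count too. Under auxin the summed level in the PDS5AB line was 84.6 to 112 CPM.

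**Figure D2:**
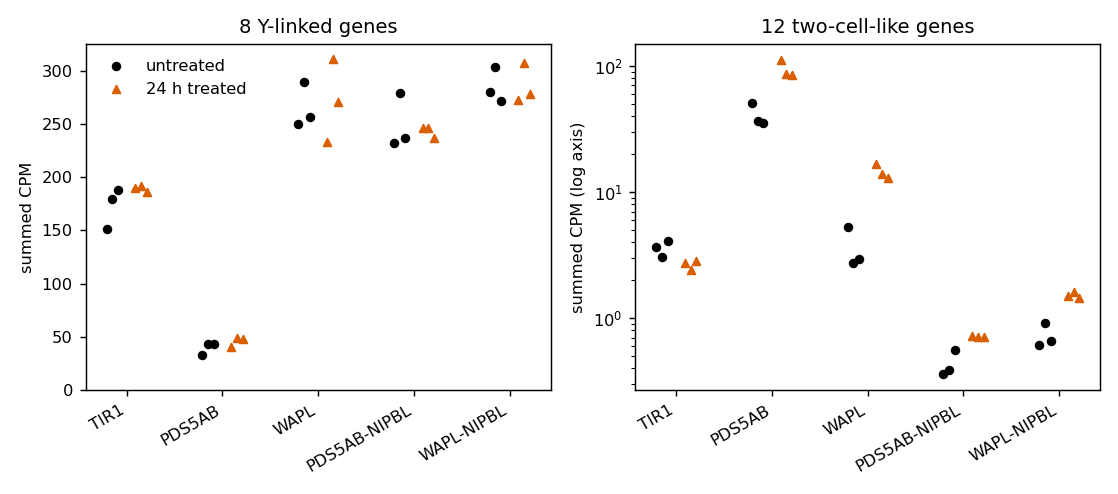
Summed CPM of 8 Y-linked genes (left, linear axis from 0) and 12 genes of the 2-cell-like state (right, log axis) in each library of the 5 lines, untreated (circles) or treated for 24 h (triangles). Untreated PDS5AB is the lowest untreated line in the left panel, at 33 to 43.5 CPM, and the highest in the right panel, at 35.2 to 50.8 CPM.

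Pluripotency genes differed by small amounts and in both directions. Pou5f1 and Nanog, core regulators of pluripotency, and Sox2, their partner, were all abundant in both lines. Sox2 was lower, at 326, 323 and 363 CPM against 441, 427 and 456 CPM (log2 -0.39, SE 0.0775, edgeR adjusted p = 0.000202). Pou5f1 was not called (log2 0.16, edgeR adjusted p = 0.106), and the call on Nanog (0.23, edgeR adjusted p = 0.0312) was lost when PDS5AB library 2 or 3 or TIR1 library 1 or 3 was left out. The Nanog call was also lost with the 9 libraries numbered up to 21 (edgeR adjusted p = 0.0691) and with the 6 libraries alone (edgeR adjusted p = 0.0507). Of 10 core pluripotency genes 4 were higher and 2 lower, and of 14 naive pluripotency genes 2 were higher and 7 lower, the latter with a median of -0.13.

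Klf4, a naive-state transcription factor, was at 218, 173 and 200 CPM in PDS5AB and at 310, 263 and 263 CPM in TIR1 (log2 -0.50, SE 0.102, edgeR adjusted p = 0.000247). Tcl1, a co-activator of the AKT kinases, was at 72.1, 84.3 and 80 CPM against 111, 123 and 116 CPM (log2 -0.57, SE 0.0877, edgeR adjusted p = 5.87e-06). The groups were separate for both. The LIF and STAT3 pathway, which sustains the naive state, gave 5 lower, 0 higher and 3 uncalled of 8 genes, with a median of -0.54. Its receptor gene Il6st was at 84.7, 88.2 and 90 CPM against 118, 130 and 129 CPM (log2 -0.52, SE 0.0648, edgeR adjusted p = 1.6e-07). Its target Bcl3 was at 35.7, 29.5 and 32.4 CPM against 87.6, 82 and 69.8 CPM (log2 -1.29, SE 0.104, edgeR adjusted p = 2.97e-11).

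All 10 formative epiblast genes were called, 5 higher and 5 lower. Sox3, a SoxB1 factor, was at 8.77, 4.69 and 3.84 CPM in PDS5AB and at 1.91, 1.28 and 1.17 CPM in TIR1 (log2 1.98, SE 0.326, edgeR adjusted p = 1.58e-05). Etv4, a target of FGF and ERK signalling, was at 53.7, 24.2 and 24.7 CPM against 73.7, 63.3 and 57.5 CPM (log2 -0.93, SE 0.233, edgeR adjusted p = 0.00238). PDS5AB library 1 was the highest of its group for both genes, and for Etv4 it stood at more than 50 CPM while the other 2 stood near 24. Lef1, a Wnt pathway transcription factor, was at 11.6, 9.26 and 9.22 CPM against 1.69, 1.45 and 1.28 CPM (log2 2.76, SE 0.233, edgeR adjusted p = 8.04e-11). For Lef1 it was TIR1 that stood apart, since WAPL was at 5.47 to 7.14 CPM and WAPL-NIPBL at 9.04 to 12.5 CPM. TIR1 itself was at 5.78 to 7.03 CPM in its auxin-treated libraries, which belong to the other range of library numbers.

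Early lineage lists were described by their calls and their summed levels. Of 11 primitive and definitive endoderm genes 7 were higher and 1 lower, with a median log2 fold change of 1.48, and of 11 primitive streak and mesoderm genes 6 were higher and 1 lower, with a median of 1.17. Gata4, an endoderm transcription factor, was at 4.32, 2.84 and 3.23 CPM in PDS5AB and at 1.25, 1.19 and 0.425 CPM in TIR1 (log2 1.87, SE 0.264, edgeR adjusted p = 1.41e-06). Eomes, which acts in mesoderm and endoderm, was at 27.9, 16.2 and 17.4 CPM against 10.4, 7.53 and 8.72 CPM (log2 1.20, SE 0.164, edgeR adjusted p = 8.42e-07). The groups did not overlap for either gene. Gsc, the organizer gene goosecoid, went the other way, at 0.506, 0.859 and 0.58 CPM against 6.87, 7.62 and 6.13 CPM (log2 -3.40, SE 0.224, edgeR adjusted p = 4.26e-13). Summed endoderm markers were 6.15 to 8.83 CPM in PDS5AB and 1.45 to 2.98 CPM in TIR1, and mesoderm markers 19.5 to 31.2 CPM and 9.07 to 13.3 CPM. The trophoblast list gave 4 higher and 1 lower of 8 genes (median 0.69), and 4 summed trophoblast markers were 5.44 to 7.65 CPM against 2.83 to 3.26 CPM. Summed over its tested genes, the streak and mesoderm list was at 23.8 to 37.8 CPM in PDS5AB and 17.9 to 21.6 CPM in TIR1, higher like its median, while the other 3 lists were not. The trophoblast list was at 79.9 to 90.7 CPM in PDS5AB and 97 to 105 CPM in TIR1, the endoderm list at 200 to 248 CPM and 219 to 231 CPM, and the neural list at 141 to 149 CPM and 197 to 225 CPM. Of 9 neural genes 3 were higher and 1 lower, and the part of differentiated cells in these differences was not tested.

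Otx1, a homeobox gene of the anterior neural plate, was at 6.24, 4.3 and 4.28 CPM in PDS5AB and at 0.147, 0 and 0.177 CPM in TIR1. Dll1, a ligand of Notch receptors, was at 4.42, 3.83 and 4.03 CPM against 0.184, 0.132 and 0.0709 CPM (log2 4.95, SE 0.358, edgeR adjusted p = 3.1e-12). Both were intermediate in PDS5AB-NIPBL, at 1.44 to 2.16 and 1.34 to 1.87 CPM. Nefm, a neurofilament subunit that shares exonic positions with Nefl, was at 6.17, 2.71 and 2.48 CPM against 45.9, 47.7 and 44.4 CPM (log2 -3.62, SE 0.233, edgeR adjusted p = 2.45e-13). Nefm was far lower in PDS5AB than in PDS5AB-NIPBL too, where it was at 27.7 to 37.9 CPM.

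**Figure D3:**
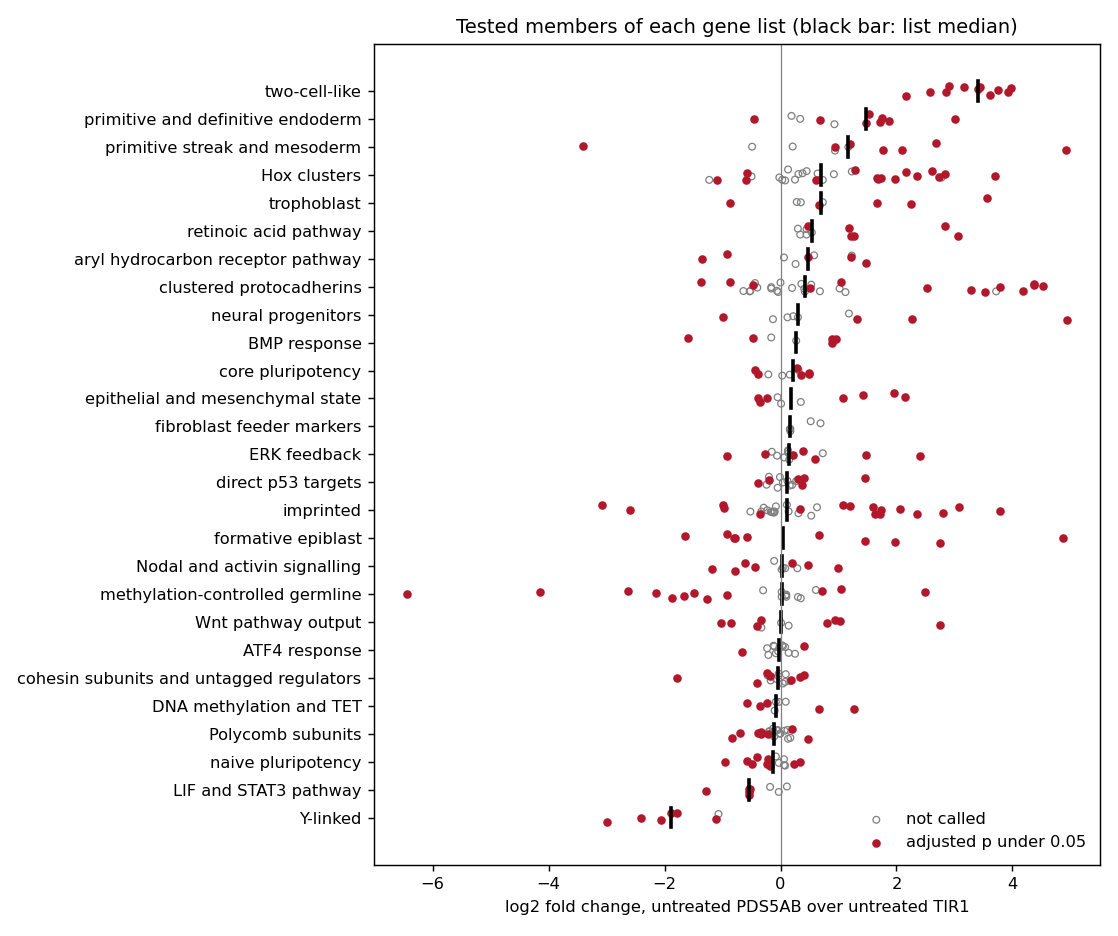
Log2 fold change of untreated PDS5AB over untreated TIR1 for every tested member of each gene list, filled where edgeR called the gene and open where it did not, with black bars at the list medians. The 2-cell-like list lies wholly to the right with a median of 3.41, the Y-linked list wholly to the left with a median of -1.89, and the germline list spans -6.44 to 2.49.

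The retinoic acid pathway gave 6 higher, 0 lower and 5 uncalled of 11 genes, with a median of 0.54, and all 11 had positive log2 values. Stra6, a membrane transporter of vitamin A, was at 4.89, 3.24 and 3.04 CPM in PDS5AB and at 1.54, 1.45 and 1.6 CPM in TIR1 (log2 1.27, SE 0.341, edgeR adjusted p = 0.00423), with separate groups. Other signalling lists had calls in both directions. Wnt pathway output gave 4 higher and 4 lower of 11, Nodal and activin signalling 3 and 4 of 12, and ERK feedback 5 and 2 of 15. BMP response gave 3 and 2 of 7, and the aryl hydrocarbon receptor pathway 3 and 2 of 9. Of 15 direct p53 targets 4 were higher and 2 lower (6 called), and of 14 tested ATF4 response genes 1 was higher and 1 lower (14.3% called). Some of these counts rested on single libraries: 4 Nodal and activin genes were called without PDS5AB library 3 or TIR1 library 2, 3 aryl hydrocarbon receptor genes without TIR1 library 1 or 2, and 3 p53 targets without TIR1 library 2. The p53 target Cdkn1a, a cell cycle inhibitor, was lower at 164, 146 and 151 CPM against 222, 198 and 183 CPM (log2 -0.39, SE 0.083, edgeR adjusted p = 0.000475).

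Imprinted genes, which are expressed from the allele of 1 parent under control of inherited DNA methylation, gave 12 higher, 5 lower and 15 uncalled of 32 tested. The called share was 53.1%, beside 32% of all genes, and the median log2 fold change was 0.12. Grb10, an adaptor that restrains growth, was at 229, 242 and 254 CPM in PDS5AB and at 48.7, 44.4 and 48.5 CPM in TIR1 (log2 2.35, SE 0.0788, edgeR adjusted p = 4.28e-20). Cdkn1c, a cell cycle inhibitor, was at 25.5, 21.1 and 19.5 CPM against 3.56, 3.43 and 2.48 CPM (log2 2.80, SE 0.161, edgeR adjusted p = 2.08e-14). Plagl1, a zinc finger transcription factor, was at 9.85, 11.9 and 11 CPM against 88.9, 92 and 95.5 CPM (log2 -3.08, SE 0.0924, edgeR adjusted p = 3.1e-21). No library of either line overlapped the other line for these 3 genes.

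The same 3 genes differed in the same direction between the combined lines. PDS5AB-NIPBL had 62.5 to 73 CPM of Grb10 against 24.8 to 29.7 CPM in WAPL-NIPBL, and 5.75 to 8.43 CPM of Cdkn1c against 1.18 to 1.61 CPM. It had 36.6 to 40.1 CPM of Plagl1 against 341 to 358 CPM in WAPL-NIPBL. The log2 differences were 1.32, 2.30 and -3.18, with edgeR adjusted p of 1.17e-13, 1.12e-10 and 8.56e-22. Peg10, a retrotransposon-derived imprinted gene, was at 195, 132 and 128 CPM in PDS5AB and at 37.5, 33.8 and 37 CPM in TIR1 (log2 2.07, SE 0.133, edgeR adjusted p = 2.45e-13). The growth factor gene Igf2 was at 3.3, 1.75 and 1.93 CPM against 0.257, 0.0881 and 0.142 CPM (log2 3.78, SE 0.467, edgeR adjusted p = 2.28e-07).

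Polycomb subunit genes, whose products keep developmental genes repressed, differed little: 2 of 22 were higher and 6 lower, with a median of -0.11. Ezh1, a catalytic subunit, was at 47.7, 47.8 and 49.8 CPM in PDS5AB and at 33.9, 34.6 and 36.8 CPM in TIR1 (log2 0.47, SE 0.0825, edgeR adjusted p = 4.33e-05). The Hox clusters, classical Polycomb targets, gave 12 higher and 3 lower of 30 tested genes, with a median of 0.69. The Hoxa, Hoxb and Hoxd clusters had 4 of 9, 3 of 6 and 4 of 6 tested genes higher and none lower, whereas Hoxc had 1 higher and 3 lower of 9. Hoxa, Hoxb and Hoxd hold 11, 10 and 9 listed genes. The filter on low counts can pass a gene through the line where it is high, so their counts are no measure of whole clusters. Hoxd13 was at 3.3, 3.11 and 3.48 CPM against 0.625, 0.484 and 0.496 CPM (log2 2.61, SE 0.204, edgeR adjusted p = 1.6e-11), with every PDS5AB library above every TIR1 library. The summed level of the tested Hoxd genes was 5.29 to 6.48 CPM against 1.03 to 1.21 CPM. For Hoxa it was 9 to 12.2 against 4.43 to 7.31 CPM, and for Hoxb 12.3 to 15.4 against 10.3 to 11.2 CPM. The Hoxc sum was lower in PDS5AB, at 22.2 to 26.4 against 26.8 to 34 CPM. Over all tested Hox genes the sums overlapped, at 52.4 to 56.3 against 43.5 to 52.9 CPM.

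The clustered protocadherins are cell surface proteins whose promoters are chosen through CTCF sites and cohesin loops. Of 56 members 32 were tested, and 10 of these were higher and 3 lower. The alpha cluster gave 5 higher and 0 lower of the 6 of its 12 genes that were tested, with a summed level of 1.43 to 1.89 CPM in PDS5AB against 0.132 to 0.147 CPM in TIR1. The beta cluster gave 3 higher and 0 lower of the 5 of its 22 genes that were tested, at 2.77 to 3.53 CPM against 0.331 to 0.567 CPM. The gamma cluster gave 2 higher and 3 lower of the 21 of its 22 genes that were tested, at 36 to 40 CPM against 41.9 to 42.8 CPM. The filter on low counts can pass a gene through the line where it is high, so the alpha and beta counts are no measure of those clusters as a whole, and without the filter 7 beta genes were called higher and 0 lower. Gamma genes share exons with each other, so their separate values are uncertain, and 3 were called without PDS5AB library 2 or 3. When the 6 libraries were fitted alone, with fewer low genes passing the filter, 5 protocadherins were called, 1 of them alpha, 1 beta and 3 gamma.

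Most Y-linked genes were lower in PDS5AB. Over the whole chromosome 8 of 13 tested genes were lower, 1 was higher and 4 were not called. The higher one, the pseudogene Mid1-ps1, was at 2.26, 1.09 and 14.7 CPM in PDS5AB and at 1.8, 0.396 and 1.56 CPM in TIR1, with overlapping groups and 1 high library (log2 2.25, edgeR adjusted p = 0.0118). Of 7 tested in the list, 6 were lower and 1 was not called, and the summed level of the list was 33 to 43.5 CPM in PDS5AB and 151 to 188 CPM in TIR1. Ddx3y, an RNA helicase, was at 12.3, 17.4 and 15.8 CPM against 73.2, 84.7 and 84.6 CPM (log2 -2.41, SE 0.104, edgeR adjusted p = 1.98e-17). Eif2s3y, a translation initiation factor, was at 14, 16.6 and 18.1 CPM against 50.4, 64 and 66.3 CPM (log2 -1.89, SE 0.123, edgeR adjusted p = 3.51e-13). The 3 PDS5AB libraries had similar low levels and were lower for Ddx3y than all libraries of the other untreated lines, which lay between 73.2 and 146 CPM. TIR1 was itself below the other 3 untreated lines: the log2 difference of TIR1 over WAPL was -0.66 for Ddx3y (SE 0.0946, edgeR adjusted p = 1.17e-05), and the summed Y-linked list was 151 to 188 CPM in TIR1 against 232 to 303 CPM in those lines. Fewer cells with a Y chromosome and less RNA per cell cannot be told apart here, and the part of this difference in the other genes was not tested.

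Position along the other chromosomes was described by medians over windows of 10 Mb. Of 249 windows, 4 had a median beyond 0.3 from 0, and the other windows lay between -0.18 and 0.26. On chromosome 4, from 140 to 150 Mb, the median was -0.35, with 77 of 183 tested genes lower and 11 higher. In that window the median was 1.00 for TIR1 over WAPL and 0.62 for PDS5AB over WAPL, and it was -0.05 for PDS5AB over PDS5AB-NIPBL. At the start of chromosome 6, from 0 to 10 Mb, the median was 0.47, with 15 of 37 genes higher and 1 lower, and this window holds Peg10. At 0 to 10 Mb of chromosome 14 the median was 0.40, but only 5 of 31 genes were higher and 3 lower, or 16.1% and 9.68%. Between same-numbered libraries the median difference in log2 CPM of this window was 0.1, 0.34 and 0.1. In the chromosome 6 window it was 0.45, 0.41 and 0.45. At 50 to 60 Mb of chromosome X the median was 0.32, with 18 of 55 genes higher and 7 lower. Chromosome 6 as a whole had 239 of 1007 genes higher and 104 lower, with a median of 0.13, beside 15.5% and 16.5% of all genes. Chromosome X had 181 of 734 higher (24.7%) and 96 lower (13.1%), with a median of 0.11. The copy number of these regions was not measured.

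**Figure D4:**
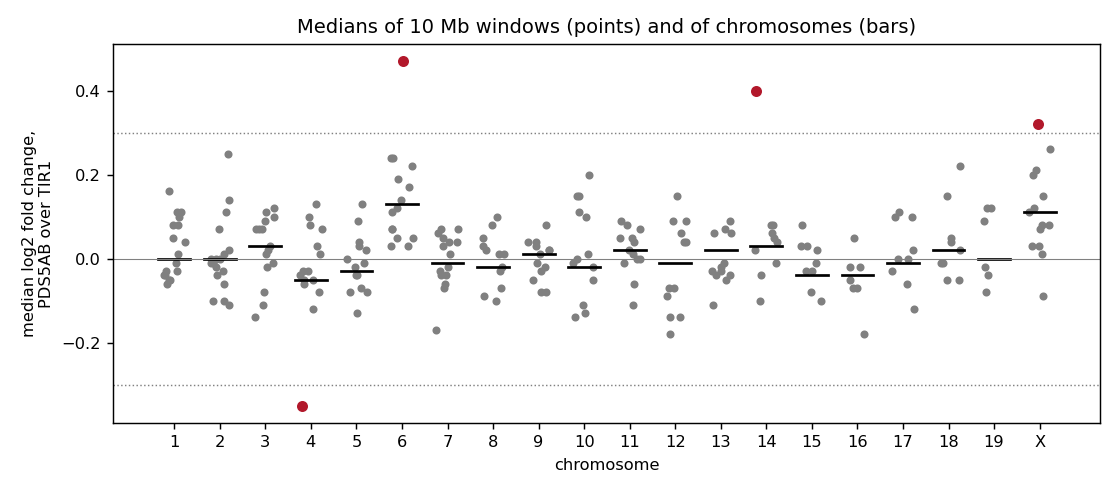
Median log2 fold change of untreated PDS5AB over untreated TIR1 in windows of 10 Mb (points) by chromosome, with bars at chromosome medians and dotted lines at -0.3 and 0.3. The 4 red windows lie beyond the lines, at -0.35 on chromosome 4, 0.47 on chromosome 6, 0.40 on chromosome 14 and 0.32 on chromosome X.

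Genes outside the lists were among the largest differences. Olfr1247, an olfactory receptor gene, was at 3.51, 2.81 and 4.44 CPM in PDS5AB, while no TIR1 library had more than 3 counts. Set against a floor of 3 counts per library, it was at least 30.9-fold higher in PDS5AB. It was at 2.26 to 2.39 CPM in PDS5AB-NIPBL and at 0.0474 to 0.0705 CPM in WAPL-NIPBL, so both lines with PDS5 fusions had it. Ushbp1 was at 0.674, 1.29 and 1.08 CPM in PDS5AB and at 18.7, 17.9 and 18.1 CPM in TIR1 (log2 -4.16, SE 0.189, edgeR adjusted p = 7.86e-17). PDS5AB-NIPBL had 10.3 to 16.4 CPM of Ushbp1, nearer the lines without PDS5 fusions. Miip, which lies in the chromosome 4 window, was at 0.135, 0.364 and 0.138 CPM against 6.76, 6.16 and 5.89 CPM (log2 -4.88, SE 0.309, edgeR adjusted p = 1.87e-13).

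To see which line stood apart, each was compared with the other 4 untreated lines. PDS5AB was called in 1 direction against all 4 for 2452 genes (12.3% of those tested), 1202 higher (6.05%) and 1250 lower (6.29%). TIR1 was called against all 4 for 551 genes (2.77%), 344 higher (1.73%) and 207 lower (1.04%), and for 352 without TIR1 library 2. In both cases 3 of the 4 reference lines have library numbers above 21, and line and library set cannot be told apart for them. Among endoderm genes 6 of 11 were higher in PDS5AB than in each other line, among them Gata4, Gata6 and Sox17. The genes Nlrp9b and Ceacam20, adjacent on chromosome 7, were higher in TIR1 than in each other line. Nlrp9b was at 25.9, 29.5 and 31.8 CPM in TIR1, at 1.38, 2.08 and 2.57 CPM in PDS5AB and at 4.75 to 11.2 CPM in the other 3 untreated lines.

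PDS5AB-NIPBL and WAPL-NIPBL, which share no library with PDS5AB and TIR1, gave a separate comparison of untreated lines with and without the PDS5 fusions, though WAPL-NIPBL carries a WAPL fusion in their place. The labels do not say whether PDS5AB-NIPBL and PDS5AB descend from a common tagged clone. In what the pairs share, the fusions and a common line history therefore cannot be told apart. It called 4552 genes (22.9%), of which 2838 were also called in PDS5AB against TIR1. That is 44.6% of the calls between PDS5AB and TIR1 and 62.3% of those between the combined lines. Of the shared genes 2638 (93.0%) had the same sign, 1250 higher and 1388 lower in the lines with PDS5 fusions, beside 67.2% with the same sign over all genes tested. Across 19868 genes, which are not independent replicates, the differences of the pairs correlated with a Pearson's r of 0.465 and a Spearman's rho of 0.449. Pds5a, Fkbp6, Tuba3a, Plagl1, Grb10, Cdkn1c, Dnmt3l, Smc1b and Olfr1247 were among the genes with the same sign in both pairs. The Y-linked genes Ddx3y and Uty, the 2-cell-like genes Zscan4c and Zscan4d, and Lef1 were called between PDS5AB and TIR1 and not between the combined lines. The Y-linked gene Eif2s3y was called in both pairs with the same sign, at -0.32 between the combined lines (edgeR adjusted p = 0.0438).

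**Figure D5:**
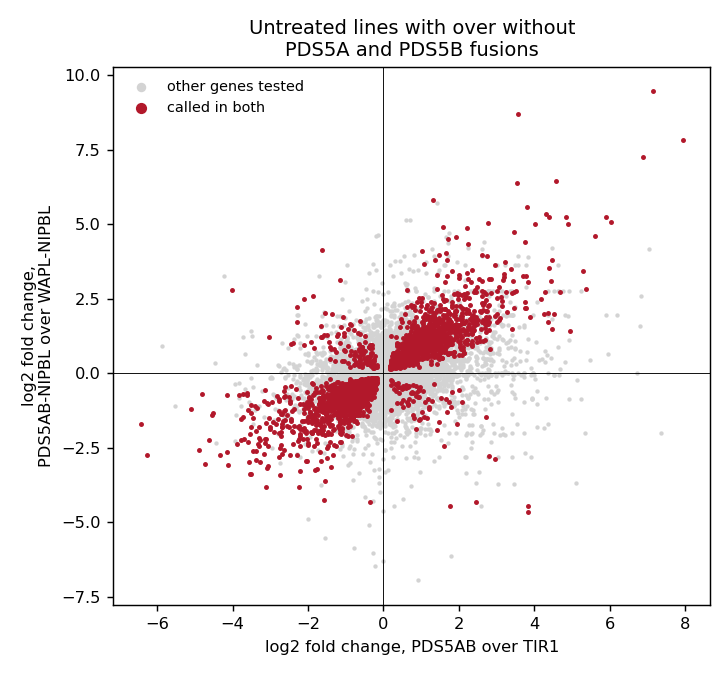
Log2 fold change of each of 19868 genes for untreated PDS5AB over TIR1 (horizontal) and untreated PDS5AB-NIPBL over WAPL-NIPBL (vertical), with the 2838 genes called in both in red. Of the red genes 93.0% lie in the lower left or upper right part of the plot, where both differences have the same sign.

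The effect of treatment in PDS5AB-NIPBL, where auxin and dTAG-13 remove PDS5A, PDS5B and NIPBL together for 24 h, also shares no library with PDS5AB against TIR1. It called 3874 genes (19.5%), of which 1851 were also called between PDS5AB and TIR1, 29.1% of one set and 47.8% of the other. The signs were the same for 1050 of them (56.7%), beside 52.8% over all genes tested, and across genes r was 0.147 and rho 0.0834. Auxin treatment of the PDS5AB line shares its untreated libraries with the comparison described here, so only levels are given. Otx1 was at 7.35 to 11 CPM and Cdkn1c at 36.4 to 44.5 CPM after auxin, above their untreated levels, and Grb10, at 144 ± 4.88 CPM (SD, n = 3), was below its own. Fkbp6 was at 0.294 to 0.653 CPM after auxin, below every untreated library of this line. Ddx3y was at 15.1 to 17.3 CPM after auxin, within its untreated range in this line.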

How the data were processed

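Messenger RNA of the 30 libraries was polyA-selected with a stranded kit, per the labels' protocols, and the submitters' processing notes name cutadapt, STAR 2.7.7a and deepTools. The deposited table holds raw fragment counts per gene, made by the authors with featureCounts 2.0.1 without a strand setting on GENCODE M23 models of GRCm38, per the file headers. Antisense and overlapping genes therefore share reads, and gene lengths were not used.

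Counts were tested with edgeR 4.0.16 in R 4.3.3: filterByExpr (minimum count 10) kept 19868 of 55421 genes, sizes were scaled by TMM, and all 30 libraries in 10 groups gave 20 residual degrees of freedom. The quasi-likelihood F-test was adjusted by Benjamini-Hochberg over all genes tested and called at 0.05. CPM values are TMM-scaled. Named genes were the 10 largest called differences in each direction with a mean of at least 50 counts and separate groups, up to 3 called members of each of 28 lists, the tagged genes, Pou5f1, Nanog and Sox2, and genes in which 1 line stood apart. Other names, such as Dazl, Tdrd1, Mael, Igf2, Peg10, Stag2 and Il6st, were chosen after their values were seen. The members and lists were chosen with earlier results of these data known. No set test was run. DESeq2 1.42.0, other scalings and filters, a replicate block and each left-out library were the alternatives.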

Additional observations from a re-analysis of the deposited data

How the results depend on the processing

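The number of genes called between PDS5AB and TIR1 stayed within 1.5 times of 6362 under another scaling (6339), DESeq2 (6349), no filter (6069), the 6 libraries alone (5159) and the 9 libraries numbered up to 21 (5807). Leaving out 1 library gave 5459 to 6167 for that comparison, 1914 to 2408 for PDS5AB against each other line, 352 to 544 for TIR1 against each other line, 3565 to 4139 between the combined lines and 2153 to 2575 shared calls of the same sign. The low end for TIR1, 352, came without TIR1 library 2. A test against a 2-fold minimum called 920, 147, 8, 340 and 176 genes in the same order, because it asks for larger differences.

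The main test did not treat replicate numbers as pairs. Deviations of same-numbered libraries correlated weakly, at 0.148, 0.0709 and 0.207, yet each library correlated best with its own number. Whether the numbers mark paired samples is therefore not settled here. With the number as a replicate block, 7089 genes were called between PDS5AB and TIR1, 2868 for PDS5AB against each other line, 739 for TIR1, 5259 between the combined lines and 3066 shared with the same sign. The block with the 6 libraries alone called 7640, and with it 12 p53 targets and 4 ATF4 response genes were called in place of 6 and 2. Without the filter on low counts 4 cohesin genes were called in place of 7.

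All 95 named genes that were called kept their sign in every alternative. Calls on 9 were lost in some alternative other than the 2-fold minimum, and 48 were lost under that minimum. Of 22 list and window medians of at least 0.3, 1 changed sign: that of the protocadherins was -0.04 with the 6 libraries alone, where most genes of the alpha and beta clusters did not pass the filter on low counts. The median log2 fold change of all genes was 0.008 under the alternative scaling. Depth limits low genes, and values under about 0.1 CPM rest on about 3 counts.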
